A study of Mus musculus with 2 samples.

Results

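Fcrls, Tmem119, Siglech, Olfml3, Sparc, Selplg, Cst3 and Serinc3 are 8 genes of the mouse microglial signature whose proteins sit on the cell surface or leave the cell. They were taken by symbol from the 32589 genes of the deposited tables, and all 8 were found, each in 1 row. Microglia had been sorted as CD45-low, CD11b-positive cells from the prefrontal cortex of C57BL/6 mice and profiled by single-cell RNA sequencing. The vehicle group had received vehicle and the corticosterone group corticosterone by oral gavage, a treatment that raises circulating stress hormone and is used to model depression in mice. Corticosterone is the main glucocorticoid of rodents. Each group was 1 library. Number of animals, sex, age, dose and duration were not given in the sources used here, and no genotype other than the strain was named.

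Microglia are the resident macrophages of the brain, and they keep their identity through signals of the tissue such as TGF-beta and ligands of the CSF1 receptor. In the healthy brain they express a set of surface and secreted proteins, some of which other macrophages mostly lack. Many genes of this set are switched down when microglia respond to injury. Fcrls encodes an Fc receptor-like molecule with a scavenger receptor domain. Tmem119 encodes a membrane protein used to stain microglia, and Siglech a sialic acid-binding lectin that signals through the adaptor DAP12. Selplg encodes PSGL-1, the ligand of P-selectin, and Serinc3 a membrane protein of the family known for restricting retroviruses. Among the secreted products, Olfml3 encodes an olfactomedin-like matrix protein, Sparc a collagen-binding matrix protein, and Cst3 cystatin C, an inhibitor of cysteine proteases.

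In microglia-like cells of the corticosterone library, Fcrls stood 4.64-fold below its vehicle level, while the other surface genes Tmem119, Siglech, Selplg and Serinc3 lay close to theirs. The secreted genes were lower to a graded extent, Cst3 by about 2-fold, Sparc less so and Olfml3 least. Fcrls was also lower in every other cell group examined, but all of these carried microglial RNA, and its part in their ratios was not tested. In the macrophage-like barcodes with the lowest microglia markers of each library Fcrls stayed, together with Serinc3, well above the other members relative to microglia-like cells. Those of corticosterone held little microglial RNA, but those of vehicle still held much of it. Group and library cannot be told apart here, so every difference below is one between 2 libraries and has no p-value. All intervals are for counting error alone.

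After filtering, the vehicle library held 10500 cells with 49325067 UMIs (molecular tags, each counting 1 captured transcript) and the corticosterone library 17883 cells with 85103539 UMIs. The median cell held 3220.5 and 3961 UMIs, with 2.67% and 4.20% of them mitochondrial. The libraries shared 104 barcode sequences, 101 of them among kept cells. Cells were clustered without the 8 members and named from other markers. The microglia-like class held 7894 vehicle cells (32296659 UMIs) and 15269 corticosterone cells (71471308 UMIs), and all 8 microglia markers used for naming were detected in it. Their summed level was 27209 CPM (counts scaled to 1000000 UMIs of the cell group) in vehicle and 25044 CPM in corticosterone. Markers of border-associated macrophages summed to 104 and 50.5 CPM there, of neutrophils to 321 and 99.7 CPM and of red blood cells to 44.5 and 22.1 CPM. Different clusters held most of the class in each library. One cluster held 92.5% of the vehicle microglia-like cells, and 3 others held 63.9%, 28.3% and 6.02% of the corticosterone ones.

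The genes lie on 5 chromosomes of the mouse build GRCm38, and all 8 are protein-coding in GENCODE M21. Fcrls (ENSMUSG00000015852) spans chr3:87250758-87263738 on the minus strand, with Cd5l, Fcrl1 and Fcrl5 as the next genes in order on one side, and Olfml3 (ENSMUSG00000027848) spans chr3:103722222-103738001. Tmem119 (ENSMUSG00000054675, chr5:113793729-113800516) and Selplg (ENSMUSG00000048163, chr5:113818536-113832644) are next to each other, 18019 bases apart on the same strand. Siglech (ENSMUSG00000051504) spans chr7:55768178-55778925 and Sparc (ENSMUSG00000018593) chr11:55394500-55423183. Cst3 (ENSMUSG00000027447, chr2:148871722-148875692) and Serinc3 (ENSMUSG00000017707, chr2:163623272-163645131) share a chromosome. An antisense gene overlaps the exons of Serinc3 near its start, and whether counting used strand is not given in the sources used here, so a Serinc3 count could include reads of that gene.

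The hormone acts through the glucocorticoid receptor, a transcription factor whose binding sites are built from the half-site AGAACA, and PU.1, a factor that macrophages need, binds at GAGGAA. RefSeq promoter windows (GRCm38.p6, 250 bases before to 50 after the start) matched 6 of the 8 members. Tmem119 and Selplg were not among them. AGAACA was found on either strand in the windows of 3 of those 6, Fcrls, Cst3 and Sparc, against 19.0% of 32851 promoter windows, and GAGGAA in 3 of 6, Fcrls, Siglech and Cst3, against 28.3%. Of the other motifs searched on both strands, GGAAGT, the core bound by ETS factors, was in 2 of 6 (Fcrls and Siglech) against 23.8%, and CACGTG, bound by MITF and TFE3, in 1 of 6 (Siglech) against 7.15%. No matches overlap within a window. The 30 bases around each match are shown for Fcrls, Cst3 and Sparc because these are the 3 members with the lowest corticosterone levels relative to vehicle. Capitals mark GAGGAA and AGAACA, the latter as TGTTCT where it lies on the other strand. The sequences run 5′ to 3′ on the minus strand of GRCm38.p6, from chr3:87263651-87263680, chr3:87263541-87263570, chr2:148875719-148875748, chr2:148875595-148875624, chr11:55420141-55420170 and chr11:55420081-55420110 in the order printed.
Fcrls PU.1 box: caagtctgtaaaGAGGAAggacgtttgctt
Fcrls half-site: gctgaaccacagTGTTCTatcccagatctg
Cst3 PU.1 box and distal half-site: acagaaGAGGAActggtaAGAACAgaaagc
Cst3 proximal half-site: acctacaaggcaAGAACAgactagcagctg
Sparc distal half-site: caaggcctggccTGTTCTaggtgattccag
Sparc proximal half-site: tttaggcaggagccccAGAACAgatgagac

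In the Fcrls window the half-site begins 34 bases before the start and GAGGAA 144 bases before it. In Cst3 half-sites begin at 218 and 100 bases and GAGGAA at 230 bases before the start, and in Sparc half-sites begin at 78 and 14 bases. In GENCODE M21 the half-sites of Fcrls and Sparc lie in the 5′ untranslated region of at least 1 transcript of the gene, since the annotations differ in where transcripts start. Those of Cst3 lie in no untranslated region. The proximal Cst3 half-site falls within the span of at least 1 transcript and the distal one outside every transcript of the gene. The matches are letters in a window and were not read as bound sites, since no binding data were analysed here.

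Among the surface genes, microglia-like cells of the vehicle library held Fcrls at 2855 CPM (95% interval 2837 to 2874) and those of the corticosterone library at 616 CPM (610 to 621). That is a log2 ratio of -2.21 (-2.23 to -2.20), or 4.64-fold lower in corticosterone. Only 10 of the 6605 genes averaging 20 CPM or more across libraries were as low or lower by this ratio, Fcrls included. Tmem119 was at 1782 CPM (1767 to 1797) and 2048 CPM (2038 to 2059), a log2 ratio of 0.20 (0.19 to 0.21). Siglech was at 2043 CPM (2028 to 2059) and 1903 CPM (1893 to 1913), a log2 ratio of -0.10 (-0.12 to -0.09). Selplg, the neighbour of Tmem119, was at 2964 CPM (2945 to 2982) and 3303 CPM (3290 to 3316), a log2 ratio of 0.16 (0.15 to 0.17). Serinc3 was at 3462 CPM (3442 to 3483) and 3326 CPM (3313 to 3340), a log2 ratio of -0.06 (-0.07 to -0.05). Apart from Fcrls, the surface genes thus lay within about 0.20 of equal levels on the log2 scale. With TMM factors and DESeq2 size factors, Tmem119 was further from equal, at 0.29 and 0.31, and so was Selplg, at 0.24 and 0.26. The sign of Siglech and Serinc3 depended on scaling: Serinc3 was at 0.03 with TMM factors, and Siglech at 0.00 and Serinc3 at 0.05 with DESeq2 size factors, which moved all genes up by 0.09 and 0.10.

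Of the secreted genes, Cst3 was the most counted member, at a vehicle level of 39392 CPM (39324 to 39461) and a corticosterone level of 18843 CPM (18811 to 18875). Its log2 ratio was -1.06 (-1.07 to -1.06), 2.09-fold lower. The side of 2-fold on which Cst3 fell depended on scaling, since it was at -0.98 with TMM factors, -0.96 with DESeq2 size factors and -0.999 when each cell was weighted equally. Sparc was at 4327 CPM (4304 to 4349) and 2736 CPM (2724 to 2748), a log2 ratio of -0.66 (-0.67 to -0.65). Olfml3 was at 2061 CPM (2045 to 2077) and 1705 CPM (1696 to 1715), a log2 ratio of -0.27 (-0.29 to -0.26). All 3 secreted genes were lower in corticosterone, also under both other scalings.

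Over the 8 members, 2 were lower by 2-fold or more, Fcrls and Cst3, against 1.29% of the 6605 genes. None of the 8 was higher by 2-fold, against 1.79% of genes, and 6 of 8 were lower by any amount, against 49.8%. These counts depend on scaling: Cst3 leaves the first with TMM and with DESeq2 size factors, Serinc3 leaves the last with both and Siglech with DESeq2. The members' median log2 ratio was -0.19, that of all 6605 genes 0.00, with the 5th and 95th percentiles at -0.57 and 0.60. Fcrls minus the median of the other 7 members, which was -0.10, came to -2.11, and these 7 ranged from -1.06 for Cst3 to 0.20 for Tmem119.

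**Figure D1:**
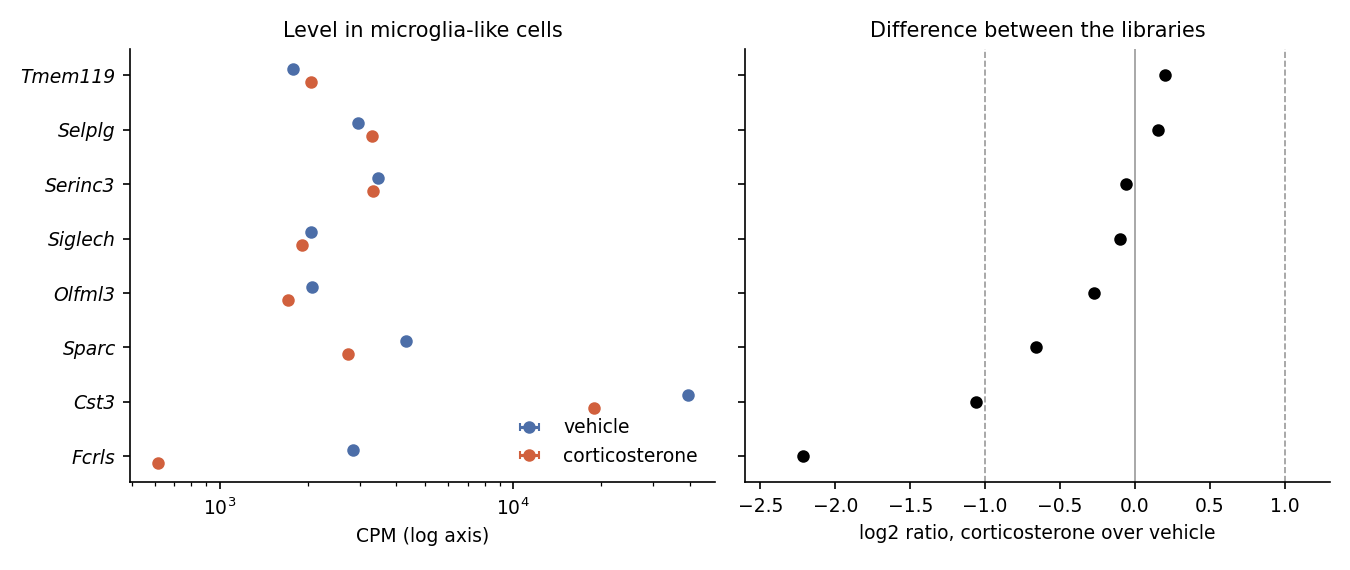
Left, level of each member in microglia-like cells of the vehicle (blue) and corticosterone (orange) libraries, in CPM on a log axis. Right, log2 ratio of corticosterone over vehicle, with dashed lines at 2-fold, and bars for 95% counting intervals that are mostly narrower than the points. Fcrls stands alone at -2.21, Cst3 lies near the lower 2-fold line at -1.06, and the other 6 lie between -0.66 and 0.20.

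The share of barcodes with an Fcrls UMI differed between the libraries as its level did. With each cell thinned to 1000 UMIs, 91.9% of 7308 vehicle cells (91.3 to 92.6%) and 40.7% of 15176 corticosterone cells (39.9 to 41.5%) held an Fcrls UMI, leaving out 586 and 93 shallower cells. Without thinning the shares were 97.7% and 78.0%. At 1000 UMIs a vehicle cell held 2.85 Fcrls UMIs on average and a corticosterone cell 0.605. A Poisson distribution with these means would leave 5.79% and 54.6% of cells without an Fcrls UMI, and the measured shares were 8.06% and 59.3%. The variance was 1.22 and 1.31 times the mean. At a mean as low as 0.605 this ratio stays near that of Poisson counts even where cells differ. It therefore does not show whether cells were equally alike in both libraries. At least 3 Fcrls UMIs were held by 52.6% of vehicle and 4.18% of corticosterone cells.

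Shares of the other surface genes were nearly level at the same depth. Among vehicle cells 79.5% (78.5 to 80.4%) held Tmem119, and among corticosterone cells 84.8% (84.2 to 85.3%). Siglech was found in 85.1% and 81.5%. Selplg was found in 93.0% and 94.4%, and Serinc3 in 95.6% and 95.7%. Of the secreted genes, Sparc was found in 97.5% and 91.7% of cells and Olfml3 in 84.6% and 79.6%. Cst3 was found in 100% of vehicle and 99.98% of corticosterone cells, a share too near its limit to show a difference. The middle 80% of vehicle cells held 25 to 52 Cst3 UMIs per 1000, and of corticosterone cells 10 to 28, with medians of 37 and 18.

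Red blood cell precursors should not make Fcrls or Tmem119, yet at the same depth 85.5% (78.3 to 91.0%) of the vehicle erythroid-like barcodes held Fcrls, and 34.1% (24.2 to 45.2%) of the corticosterone ones did. The corticosterone interval includes the microglia-like share of 40.7%. Tmem119 was found in 78.6% and 78.8% of them. Their median barcode had 2486 and 3760 UMIs, and the median microglia-like cell 3194 and 4004. These barcodes carried the 8 microglia markers at a median of 0.793 times (vehicle) and 0.842 times (corticosterone) the microglia-like CPM, so microglial RNA was present in them at near full level. Cst3 was found there in 100% and 98.8% of barcodes. A share of barcodes with a UMI therefore does not show here which cells made the transcript, for Fcrls, Cst3 or the other members.

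**Figure D2:**
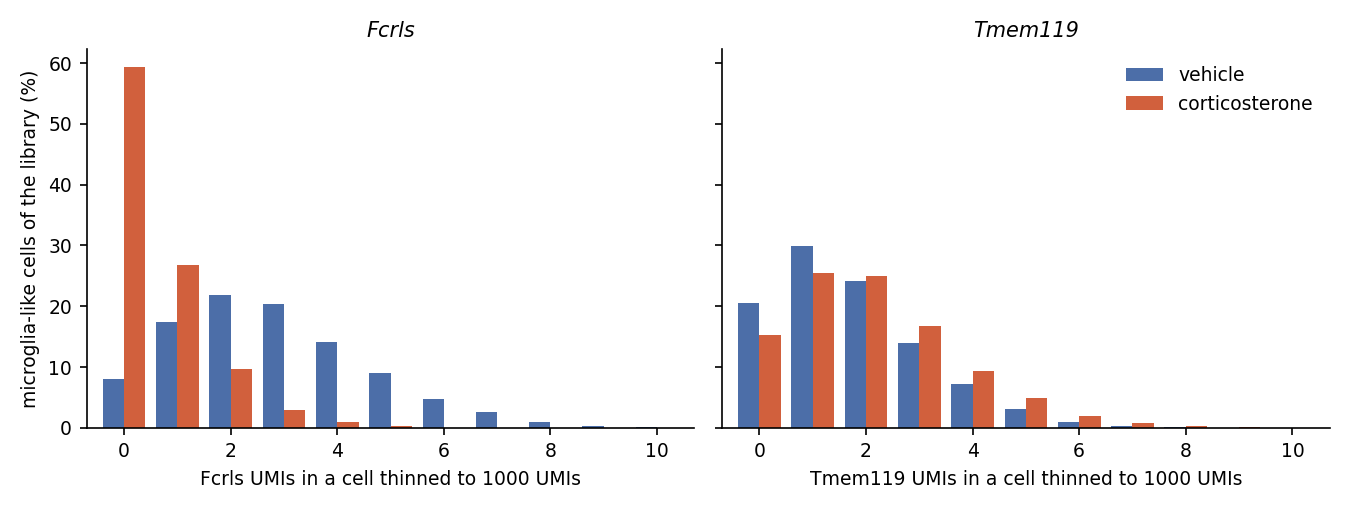
Share of microglia-like cells (%) by the number of Fcrls (left) and Tmem119 (right) UMIs in a cell thinned to 1000 UMIs, for vehicle (blue) and corticosterone (orange). The Fcrls bars of corticosterone crowd at 0, where 59.3% of cells lie against 8.06% of vehicle cells, while the Tmem119 bars of both libraries follow nearly the same shape.

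In the other members, corticosterone cells without an Fcrls UMI had averages near those of cells with one. This split is largely one of sampling, since a Poisson distribution would leave 54.6% of these cells without an Fcrls UMI. The measured share was 59.3%. Likeness across the split therefore does not show whether cells with less Fcrls differ in the other members. Over 9000 cells without and 6176 cells with an Fcrls UMI at 1000 UMIs, Tmem119 averaged 2.08 and 2.10 UMIs and Selplg 3.30 and 3.30. Siglech averaged 1.89 and 1.91 and Serinc3 3.30 and 3.35. Cst3 averaged 18.4 (18.4 to 18.5) without and 19.2 (19.1 to 19.3) with an Fcrls UMI, and Olfml3 1.68 (1.65 to 1.70) and 1.79 (1.75 to 1.82). In vehicle the 589 cells without an Fcrls UMI averaged 1.61 Tmem119 and 36.7 Cst3 UMIs, and the 6719 cells with one 1.73 and 38.1.

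Fcrls, Cst3, Sparc and Olfml3 kept their order across subclusters of the microglia-like class. Clustering with genes centred within each library gave 6 subclusters, 1 of them led by the neutrophil granule genes Camp, Ngp and Ltf, and Fcrls was the lowest member by log2 ratio in all 6, between -2.40 and -2.01. The lowest ratio was in the interferon-led subcluster (Ifi211, Ifit3b), with 2820 CPM in vehicle and 535 CPM in corticosterone. The ratio nearest 0 was in the smallest subcluster, led by Spp1 and Lpl, genes raised in microglia around damaged tissue, with 2747 and 681 CPM over 59 and 78 cells. That subcluster had the lowest Tmem119 of the 6 in both libraries, 893 and 1107 CPM against at least 1706 CPM in the other vehicle subclusters. Siglech, Olfml3, Sparc, Selplg, Cst3 and Serinc3 were also lowest there in both libraries. Fcrls was not: its vehicle level of 2747 CPM lay inside the range of the 6, 2684 to 2959 CPM, and its 681 CPM was the highest in corticosterone.

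Cst3 was the member next to Fcrls in all 6 subclusters, from -1.31 to -0.91, followed by Sparc, from -0.94 to -0.54. Olfml3 lay between -0.37 and -0.18. Tmem119 was higher in corticosterone in all 6, between 0.10 and 0.31. Selplg, from -0.11 to 0.21, Siglech, from -0.23 to 0.10, and Serinc3, from -0.21 to 0.02, took both signs.

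**Figure D3:**
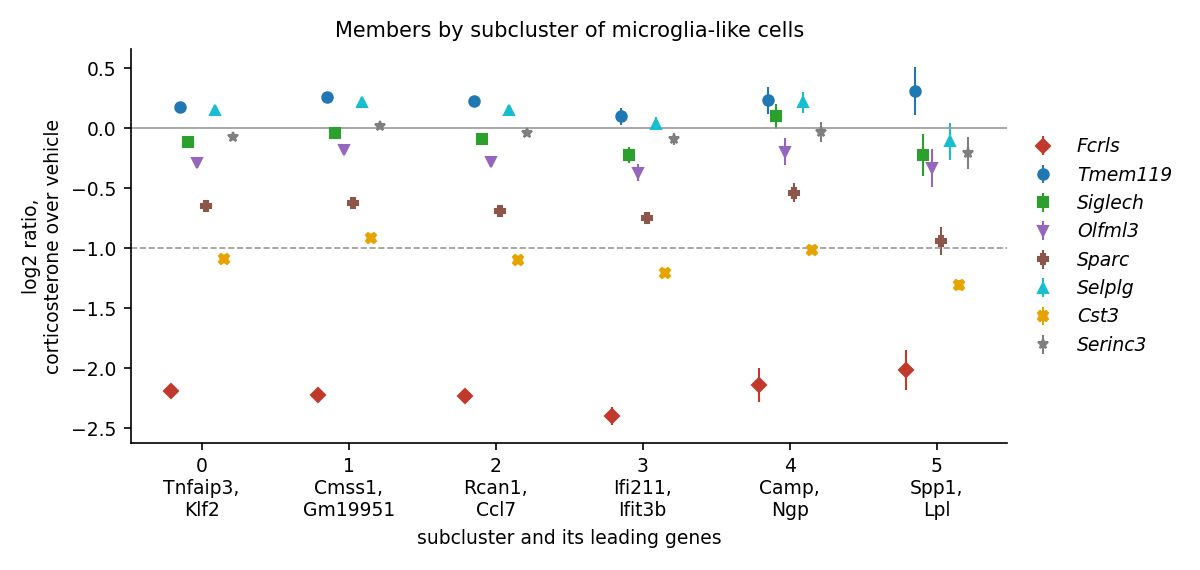
Log2 ratio of corticosterone over vehicle for each member (vertical axis) in the 6 subclusters of microglia-like cells, labelled by leading genes (horizontal axis), with bars for 95% counting intervals and a dashed line at 2-fold. Fcrls lies between -2.40 and -2.01 throughout, apart from the next member, Cst3, at -1.31 to -0.91.

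Cells of both libraries that fell in the same cluster were also compared. In the joint clustering, 238 vehicle cells fell in the cluster that held most corticosterone microglia-like cells, and their Fcrls stood at 2535 CPM, against 614 CPM in the 9758 corticosterone cells beside them. In the cluster of most vehicle cells, 270 corticosterone cells stood at 689 CPM and the 7305 vehicle cells at 2862 CPM. Depth and mitochondrial share differed between the libraries, and their part in the ratio was not tested. Over 4 equal bins of cells by UMIs it ran from -2.21 to -2.16, and over 4 bins by mitochondrial share from -2.30 to -2.15. The bins were cut within each library, so they do not set cells of like depth or mitochondrial share against each other. In the lowest UMI bin the median cell held 1485 UMIs in vehicle and 2594 in corticosterone. Cst3 ran from -1.11 to -0.89 over the UMI bins, and Tmem119 from 0.16 to 0.38.

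In cell groups outside the microglia-like class, Fcrls was again lower in corticosterone in each of the 7 with at least 50 cells. Its log2 ratio was -1.72 in macrophage-like, -2.26 in erythroid-like, -2.54 in neutrophil-like and -3.31 in monocyte-like barcodes. It was -2.52, -3.37 and -2.23 in 3 unnamed clusters, 1 of few UMIs per cell, 1 led by the neutrophil granule genes Camp, Ngp and Ltf and 1 led by class II histocompatibility genes. Fcrls was the lowest of the 8 members in all of them, and its ratio minus the median of the others ran from -2.32 to -1.28.

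The level of microglia markers in these barcodes also differed between the libraries, to an extent that varied by group. In erythroid-like barcodes, where the microglia markers were near the same relative level in both libraries, 1 member was lower by 2-fold, against 4.1% of genes. In neutrophil-like barcodes the median marker was at 0.785 (vehicle) and 0.541 (corticosterone) times what microglia-like cells held. There 3 members were lower by 2-fold, against 3.71% of genes. In monocyte-like barcodes the marker levels were 0.757 and 0.278, and 8 of 8 members were lower by 2-fold, against 16.6% of genes. The Camp-led cluster had 0.376 and 0.146, and 6 of 8 members, against 12% of genes. Macrophage-like barcodes had 0.861 and 0.682, with 3 members lower by 2-fold against 1.1% of genes, and the Fcrls ratio nearest 0. The class II cluster had 0.836 and 0.683, with 2 members against 2.97%, and the cluster of few UMIs 0.694 and 0.651, with 2 against 1.64%. Marker level and Fcrls ratio thus did not follow a single order over the 7 groups, and the part of microglial RNA in these ratios was not tested.

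Setting Fcrls against other microglial transcripts of the same barcodes takes out much of that difference in amount. Per 100 UMIs of Tmem119 and Siglech together, vehicle microglia-like cells held 74.6 (74.0 to 75.3) Fcrls UMIs and corticosterone ones 15.6 (15.4 to 15.7). In vehicle the other groups lay from 72.8 in the cluster of few UMIs to 87.0 (85.6 to 88.3) in macrophage-like barcodes. In corticosterone they lay from 13.6 in the cluster of few UMIs and 14.0 in erythroid-like barcodes to 25.3 (20.6 to 30.8) in monocyte-like and 32.6 (31.6 to 33.6) in macrophage-like barcodes. Macrophage-like barcodes thus held the most Fcrls on this measure, though in vehicle the monocyte-like interval (72.9 to 87.4) overlapped theirs. Per 100 UMIs of all other 7 members, macrophage-like barcodes held 5.57 in vehicle, under the 5.74 of the cluster of few UMIs, and 3.30 in corticosterone, the most of the groups there.

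**Figure D4:**
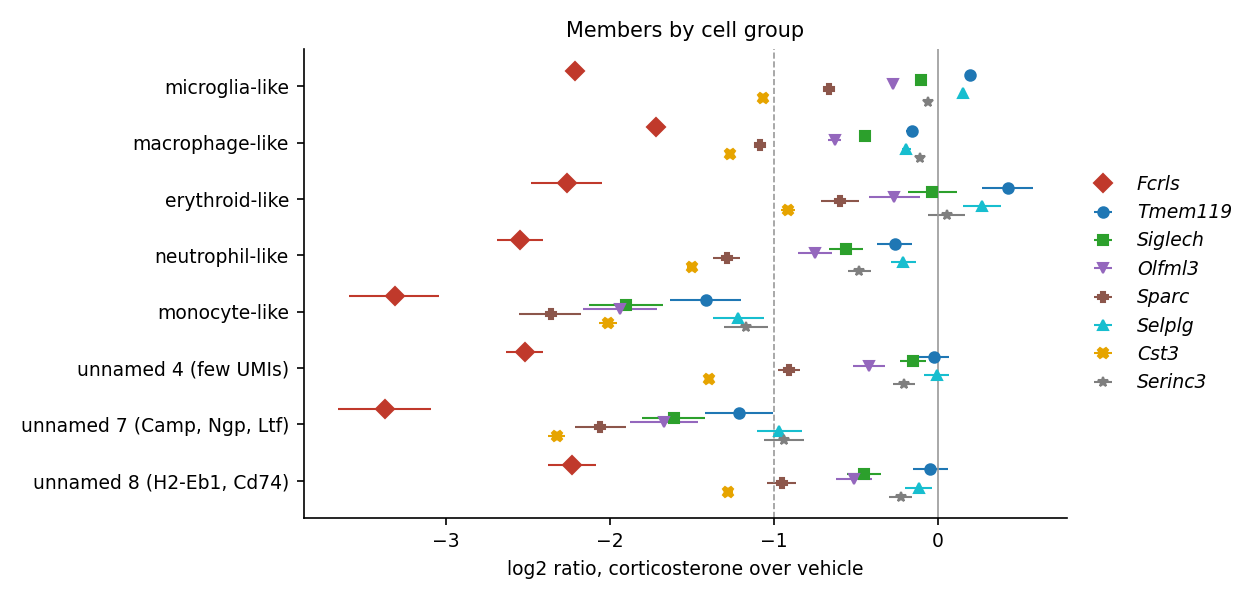
Log2 ratio of corticosterone over vehicle (horizontal axis) for each member in 8 cell groups (vertical axis), with bars for 95% counting intervals and a dashed line at 2-fold lower. Fcrls is the leftmost member in every group, from -3.37 in the Camp-led cluster to -1.72 in macrophage-like barcodes.

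Border-associated macrophages live in the meninges and around vessels and are relatives of microglia. Macrophage-like barcodes also carried much microglial RNA, so their levels do not by themselves show which members macrophages make. Levels of Fcrls in order were, for vehicle, 2855 CPM in microglia-like, 2729 CPM (2698 to 2760) in macrophage-like, 2384 CPM (2227 to 2549) in monocyte-like, 2328 CPM (2192 to 2470) in erythroid-like and 2202 CPM (2121 to 2285) in neutrophil-like barcodes. The intervals of the last 3 overlap. In corticosterone the order began with macrophage-like barcodes at 829 CPM (808 to 851), above microglia-like cells at 616 CPM, followed by erythroid-like at 486 CPM (422 to 557), neutrophil-like at 377 CPM (344 to 413) and monocyte-like at 240 CPM (200 to 286). Macrophage-like was thus the only one of these 4 classes above the microglia-like level, and only in corticosterone.

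Macrophage-like barcodes, 1063 in vehicle and 791 in corticosterone, held the microglia markers at 0.764 to 0.884 times their microglia-like level in vehicle and 0.633 to 0.736 times in corticosterone. Relative to its own microglia-like level, Fcrls was above both ranges at 0.956 and 1.35 times, and so was Serinc3 at 1.02 and 0.982 times. Cst3, at 0.881 and 0.765 times, was above the corticosterone range only. Siglech, Olfml3 and Selplg lay inside both ranges, while Tmem119 and Sparc, at 0.629 and 0.595 times, lay just under the corticosterone range.

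The contrast became larger when macrophage-like barcodes were divided into 4 equal bins by their level of the 8 microglia markers, a split chosen after the class values were seen. In the lowest bin of corticosterone, 198 barcodes, the markers stood at 0.0887 times the microglia-like level and macrophage markers such as Mrc1, Pf4 and Cd163 summed to 20754 CPM. Tmem119 there was at 76.4 CPM (58 UMIs), Olfml3 at 68.5 CPM (52 UMIs) and Sparc at 138 CPM (105 UMIs), 0.0373, 0.0402 and 0.0505 times their microglia-like levels. Siglech was at 192 CPM and Selplg at 204 CPM, 0.101 and 0.0618 times. These 5 genes had nearly gone with the microglia markers.

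The other 3 members had not. Fcrls in these barcodes was at 1241 CPM, 2.02 times its level in corticosterone microglia-like cells. Serinc3 was at 3128 CPM, 0.940 times, and Cst3 at 6830 CPM, 0.362 times. In the bin with the most microglia markers, at 0.947 times, Fcrls was at 698 CPM and 1.13 times, and the other 7 members ranged from 0.838 times for Sparc to 1.02 times for Serinc3. With 1010 and 726 CPM in the bins between, corticosterone Fcrls was higher in bins with fewer microglia markers, and it was the only member with that order. In vehicle the order was the reverse.

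In vehicle the lowest bin, 266 barcodes, still held the markers at 0.398 times the microglia-like level, with macrophage markers at 11561 CPM. Fcrls stood there at 2323 CPM, 0.814 times, and at 2588, 2758 and 2874 CPM in the bins with more markers, so it was lowest where the markers were lowest. In the lowest bin Serinc3 stood at 3050 CPM, 0.881 times. Tmem119, Siglech, Olfml3, Sparc and Selplg lay between 0.350 and 0.457 times, and Cst3 at 0.503 times. The lowest bins of the libraries differ in how much microglial RNA they hold. Their log2 ratios, -0.90 (-1.01 to -0.80) for Fcrls, 0.04 (-0.04 to 0.11) for Serinc3 and -3.03 for Tmem119, are given with that difference and were not compared with the microglia-like ones. At a finer clustering (resolution 1.0), where 886 vehicle and 10 corticosterone barcodes split off from the macrophage-like class and stayed unnamed, the log2 ratio of Fcrls in the class was -1.42 and that of Cst3 -0.48, against -1.72 and -1.27.

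**Figure D5:**
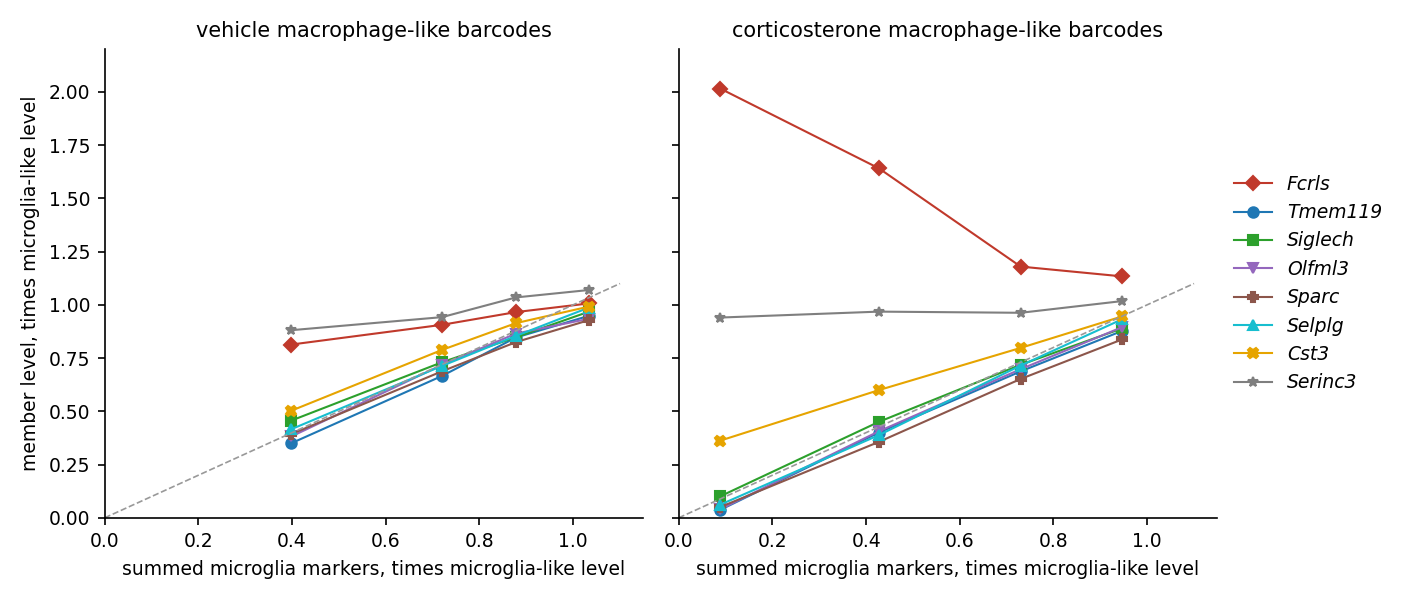
Level of each member in macrophage-like barcodes as a multiple of its microglia-like level in the same library (vertical axis), against the summed level of 8 microglia markers on the same scale (horizontal axis), for 4 equal bins of barcodes by those markers. On the dashed line a member moves in step with the markers. Tmem119, Siglech, Olfml3, Sparc and Selplg follow it, Serinc3 stays near 1, and Fcrls lies above the line, reaching 2.02 in corticosterone, except in the vehicle bin with the most markers, where it is at 1.01 and the markers at 1.03.

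Neutrophil-like barcodes gave a different picture in the same split. In their lowest bin (69 barcodes in corticosterone) the markers stood at 0.0236 times the microglia-like level. Selplg, which neutrophils need to roll on vessel walls, was at 1245 CPM and 0.377 times, and Serinc3 at 744 CPM and 0.224 times. Fcrls was at 57.8 CPM from 9 UMIs, 0.0938 times, between Cst3 at 0.107 times and Siglech at 0.0607 times. In the lowest vehicle bin (50 barcodes, markers at 0.137 times) Selplg was at 1341 CPM, 0.453 times, and Fcrls at 553 CPM, 0.194 times. Relative to its microglia-like level, Selplg was thus the highest member in the lowest bin of neutrophil-like barcodes in both libraries.

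Relatives and partners of the members were read from lists of related genes. Of 10 Fc receptor and Fc receptor-like genes, 6 reached a mean of 20 CPM, and 5 of these 6 were higher in corticosterone, with a median log2 ratio of 0.26, where 49.8% of all genes were lower. Fcgr4, an activating receptor for IgG, was the highest at 2.56 (2.44 to 2.68), with 18.2 CPM in vehicle and 108 CPM in corticosterone. Fcrl1, which lies 112648 bases from Fcrls, was the 1 lower gene, at 68.3 and 27.2 CPM and a log2 ratio of -1.33 (-1.42 to -1.24). The 5 higher genes were the Fc receptors Fcgr1, Fcgr2b, Fcgr3 and Fcgr4 and their signalling chain Fcer1g, and Fcrl1 was the only other Fc receptor-like gene that reached this level.

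Of the siglecs and their adaptors, 6 of 10 reached that level, 5 were higher and none passed 2-fold in either direction. Over all genes 49.8% were lower, and 1.29% were lower and 1.79% higher by 2-fold, so none past 2-fold is near that share. Siglecf at 0.63 and Siglece at -0.21 were the extremes. Tpst1, a sulfotransferase that can modify PSGL-1, was at 10.3 and 47.0 CPM, a log2 ratio of 2.19 (2.03 to 2.36). Of 4 genes measured in the list of selectins and PSGL-1 glycosylation it alone passed 2-fold, against 1.79% of all genes higher by 2-fold. B4galt1 was lowest in that list at -0.15. Cysteine proteases, the targets of cystatin C, were higher in 7 of 7 measured genes (median 0.36), where 49.8% of all genes were lower and 1.79% higher by 2-fold. They ranged from Ctss at 0.01 (6790 and 6843 CPM) to Ctsc at 1.42 (405 and 1087 CPM), and 1 of 7 passed 2-fold. The sign of Ctss was not fixed: its 0.01 is less than the move of Fcrls, from -2.21 to -2.24, when Cst3 was left out of the totals.

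Cstb was the only other cystatin measured, at 0.04 (-0.01 to 0.10), Serinc1 the only other serinc, at -0.22 (-0.25 to -0.18), and Olfml2b the only other olfactomedin gene, at 0.06 (-0.04 to 0.15). None of 7 relatives of Sparc reached 20 CPM. In a list of 32 homeostatic microglia genes without the members, 3 were lower by 2-fold or more and none higher, 20 were lower by any amount and the median was -0.17, where 1.29% of all genes were lower by 2-fold, 1.79% higher by 2-fold and 49.8% lower by any amount. Gas6, a ligand of the receptors Axl and Mertk, was at 142 and 34.8 CPM (-2.03) and Lag3 at 341 and 126 CPM (-1.44), while Itgb5 was highest at 0.38.

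Across 16 points, 8 cell groups in each library, the levels of the members were compared on the log2(CPM + 1) scale. These points share libraries and microglial RNA, so the correlations describe likeness and carry no test. Among the members, Tmem119 and Selplg were the most alike (Pearson r = 0.988), and Fcrls was most like Cst3 (r = 0.965) and least like Tmem119 (r = 0.610). Of all genes read, those most like Fcrls included Ecscr (r = 0.972), Lmo2 (r = 0.972), Serpine2 (r = 0.967) and Rapsn (r = 0.966). In microglia-like cells Ecscr was at 445 and 123 CPM, Serpine2 at 497 and 205 CPM, Lmo2 at 296 and 179 CPM and Rapsn at 52.9 and 10.6 CPM in vehicle and corticosterone. All 4 were lower in corticosterone. They were picked for likeness to Fcrls over points of both libraries, so their direction is not a separate result.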

How the data were processed

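The deposited values are whole UMI counts of each gene in each barcode, per the file headers, not normalized, from Singleron GEXSCOPE libraries, per the labels' protocols. The submitters' processing notes name bcl2fastq 2.19 and GRCm38. The aligner, counter, annotation and rule for calling cells are not given in the sources used here. Files carry other group words (wild type, depression) than the labels and were assigned through the sample records. The members, gene lists and markers were chosen with earlier results of these data known.

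Barcodes with under 500 UMIs, under 300 genes or over 20% mitochondrial UMIs were left out, which removed 55 in vehicle and 230 in corticosterone. Clustering (scanpy 1.11.5, leidenalg 0.10.2) used 2000 variable genes without the members, 30 components, 15 neighbours and resolution 0.5. A class needed at least 3 markers, each in at least 10% of a cluster's cells at 2 times its level elsewhere. Clusters failing this were microglia-like if 3 microglia markers were detected at a geometric mean of at least 0.5 times that of all cells. Clusters under 33.3% of their libraries' median UMIs without a marker of the class among their 10 leading genes stayed unnamed, as did those led by another class. No doublet caller was run. Endothelial-like barcodes (39 and 29) were under the minimum of 50.

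UMIs were summed per class and library and scaled to CPM. Intervals are 95% exact Poisson for levels, exact conditional for ratios and Clopper-Pearson for shares. The ratio code was tested on simulated data. Named genes were the members, the highest and lowest of each list at a mean of 20 CPM and the 5 genes most like Fcrls. Fc receptor-like genes next to Fcrls, Gas6, Lag3 and members of the marker lists were named in addition. Of the genes so named, 1 is not reported here. TMM came from edgeR 4.0.16 and size factors from DESeq2 1.42.0, for scaling only.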

Additional observations from a re-analysis of the deposited data

How the results depend on the processing

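Fcrls was recomputed in microglia-like cells under 16 alternatives, 4 of them added after the data were seen, and its log2 ratio stayed between -2.24 and -2.11. It was -2.16 with every barcode, -2.16 with all cells, -2.18 under a rule per cell, -2.13 with TMM, -2.11 with DESeq2 size factors, -2.24 after thinning and -2.24 with Cst3 left out of the totals. Fcrls minus the median of the other 7 members, -2.11 in the main analysis, was -2.07 with every barcode, -2.07 with all cells, -2.14 by mean per-cell CPM and -2.14 after thinning. With Cst3 left out of both the totals and the median, the difference was -2.13. Leaving out shared barcodes, the Camp-led subcluster or the 5% of cells with the most UMIs, and other resolutions, moved both by less than the counting interval. Siglech reversed to 0.0019 with DESeq2 size factors, and Serinc3 to 0.0294 with TMM and 0.0469 with DESeq2. Cst3 ranged from -1.07 to -0.96. The background share of genes lower by 2-fold was 2.06% at a minimum of 5 CPM and 17.6% without a minimum, where the share higher by 2-fold was 13.7%. No paired analysis was possible because each group is 1 library. With 1 library per group, no spread between animals or preparations was measured, and counting intervals understate the error of every ratio. Members in monocyte-like barcodes rest on 54 and 63 cells.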
